A study of Homo sapiens with 24 samples.

Results

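The genes described here are 60 protein-coding genes of human chromosome 21 that were picked because their RNA was lower, as a block, in one engineered kidney cell line. They are 60 of the 58138 gene names in the count tables, and 769 of those names matched a gene of chromosome 21 in the GENCODE 29 annotation of build GRCh38. The members were selected on the measured difference between the RPRD1B_FL line and its parent line, so their line differences below describe how the block is built and carry no test. Of the 60 members, 58 had enough counts to enter the fit of the Flp-In samples. C2CD2 and the splicing factor gene U2AF1 did not, and all 58 others remain in the counts below whatever their direction.

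The study was about RPRD1A, RPRD1B and RPRD2, proteins that bind the tail of RNA polymerase II, and about RNA levels in cultured human cells. Some samples were Flp-In T-REx 293 cells, which come from the human embryonic kidney line HEK293 and carry a docking site for a gene that tetracycline can switch on. The parent line was labelled FLP without and FLP_TET with 48 h of tetracycline, and the line labelled RPRD1B_FL was grown in the same 2 ways (RPRD1B_FL and RPRD1B_FL_TET). The other samples were HEK293T cells, a relative of HEK293 that carries the SV40 large T antigen, transfected for 48 h with a control siRNA or with siRNAs in 7 groups labelled RPRD1B_KD, RPRD1A_KD, RPRD2_KD, RPRD1A_RPRD1A_KD, RPRD1A_RPRD2_KD, RPRD1B_RPRD2_KD and RPRD1A_RPRD1B_RPRD2_KD. Each of the 12 groups held 2 samples. The labels explain neither FL nor the repeated name in RPRD1A_RPRD1A_KD, and they do not say whether RPRD1B_FL cells are 1 clone or a pool, or whether samples of a group came from separate cultures. The p-values below therefore measure only the spread between these samples, which may be technical.

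RNA was read from its polyadenylated 3′ end with QuantSeq REV libraries, so a gene's count does not grow with its length. Total counts in genes were 2342969 to 3531106 in the 8 Flp-In libraries and 1817246 to 3135625 in the 16 HEK293T libraries, and 3 counts, taken as the floor of detection, corresponded to 0.85 to 1.65 CPM. CPM stands for counts scaled to library size, on one scale for all 24 libraries. RPRD1B itself was at 30.5 to 36.3 CPM in the 4 parent samples, 45 and 45.5 in RPRD1B_FL, 67.5 and 89.4 in RPRD1B_FL_TET, and 3.88 to 14.3 in the 6 samples whose siRNA label names it, against 27.6 and 27.9 in the HEK293T control. In the 8 samples whose siRNA label names the gene, RPRD1A was at 14.3 to 26.8 CPM (control 153 and 162) and RPRD2 at 30.3 to 68.2 CPM (control 96.5 and 99.7). Of the 10 genes taken as markers of 293 cells, VIM (76.2 to 414 CPM) was present in all 24 samples, while CD3E, MYH7, DCN and INS, markers of T cells, heart muscle, fibroblasts and pancreatic beta cells, were at 0 in all 24. In these bulk samples, fewer cells of a type and less RNA per cell cannot be told apart.

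Chromosome 21 is the smallest human autosome, and it is best known for gene dosage, because an extra copy of it causes Down syndrome. Among its genes are a cluster of chains of the interferon and interleukin-10 receptors, the purine synthesis enzyme gene GART, the antioxidant enzyme gene SOD1, the amyloid precursor gene APP, the kinase gene DYRK1A and several transcription factor genes. In cells with a changed number of copies of a chromosome, the RNA of most of its genes is known to follow the copy number, while some genes depart from it. The dosage ratio used below is only a ratio of RNA levels, RPRD1B_FL line over parent line. The number of copies of chromosome 21 was not measured here.

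The promoters of 3 members are shown because they stand for different positions in the block. SON and TTC3 each start back to back with another member, whereas USP25 was the member whose RNA differed least between the lines. RefSeq windows (GRCh38.p14) reach from 250 bases before to 50 bases after a start site and were found for 48 of the 60 members, which gave 79 windows. In the windows of SON and TTC3 the partner gene starts on the opposite strand. Capitals mark CCAAT boxes (CCAAT or ATTGG) in SON, and GC boxes (GGGCGG or CCGCCC, overlapping ones run together) in TTC3 and USP25.
SON, chr21:33542788-33543087, plus strand: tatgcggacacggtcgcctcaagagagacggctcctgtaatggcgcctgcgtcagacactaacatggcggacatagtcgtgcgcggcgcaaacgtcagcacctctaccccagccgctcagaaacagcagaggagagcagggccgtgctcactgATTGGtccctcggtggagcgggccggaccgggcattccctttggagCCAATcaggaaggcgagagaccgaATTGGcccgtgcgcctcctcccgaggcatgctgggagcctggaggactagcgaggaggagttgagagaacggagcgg
TTC3, chr21:37073004-37073303, plus strand: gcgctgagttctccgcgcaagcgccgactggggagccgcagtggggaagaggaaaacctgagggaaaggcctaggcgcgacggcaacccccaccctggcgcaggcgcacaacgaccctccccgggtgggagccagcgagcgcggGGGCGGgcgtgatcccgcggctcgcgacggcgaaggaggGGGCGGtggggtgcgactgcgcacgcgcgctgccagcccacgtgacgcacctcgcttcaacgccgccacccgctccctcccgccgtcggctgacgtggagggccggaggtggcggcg
USP25, chr21:15729732-15730031, plus strand: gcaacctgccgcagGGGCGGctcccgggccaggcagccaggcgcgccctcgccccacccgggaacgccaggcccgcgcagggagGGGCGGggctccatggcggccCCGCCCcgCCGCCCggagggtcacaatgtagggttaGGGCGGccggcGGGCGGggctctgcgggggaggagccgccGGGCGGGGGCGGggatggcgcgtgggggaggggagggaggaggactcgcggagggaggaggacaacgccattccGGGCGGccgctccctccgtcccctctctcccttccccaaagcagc

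GART starts on the minus strand at position 105 of the SON window, 146 bases from the SON start site, and a further listed GART start lies at position 102. PIGP starts on the minus strand at position 68 of the TTC3 window, 183 bases from the TTC3 start. A GC box, on either strand, lay in 62% of the 79 windows of members and in 45% of all 35116 windows of the table. A CCAAT box lay in 27.8% of the windows of members and in 34.6% of all. The core of the ETS and GABP motif (CCGGAAG or CTTCCGG), of interest because GABPA and ETS2 are members, lay in 20.3% of the windows of members and in 10.3% of all, and in none of the windows printed above. These shares describe letters in the windows and not binding. Windows that overlap or belong to 1 gene are not independent of each other.

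The block was lower in all 4 samples of the RPRD1B_FL line. Relative to the mean of the 4 parent samples, the median member was at -0.70 and -0.76 (log2) in RPRD1B_FL and at -0.75 and -0.69 in RPRD1B_FL_TET, against 0.04, 0.00, -0.05 and -0.06 in the parent samples. These medians are over the 57 members with enough counts in both cell lines. Summed over the same members, their RNA amounted to 5565 to 5793 CPM in the RPRD1B_FL line and 9140 to 9964 CPM in the parent line, with no overlap. The 16 HEK293T samples lay between the lines of Flp-In cells, with medians of -0.57 to -0.35 and sums of 7134 to 7596 CPM.

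**Figure D1:**
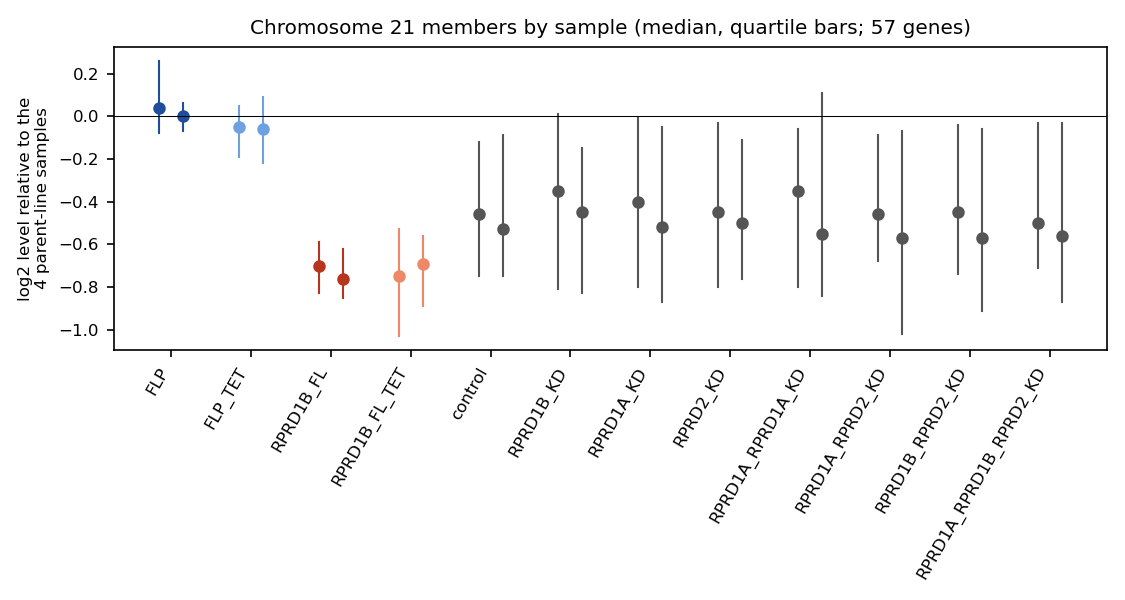
Median log2 level of 57 members in each of the 24 samples, relative to the mean of the 4 parent samples (vertical bars: the quartiles over genes). The 4 RPRD1B_FL samples sit at -0.76 to -0.69, the 4 parent samples at -0.06 to 0.04 and the 16 HEK293T samples at -0.57 to -0.35.

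Averaged over the samples without and with tetracycline, the median dosage ratio of the 58 tested members was 0.599 (log2 fold change -0.74), with quartiles of 0.544 and 0.666. The ratio lay between 0.5 and 0.75 for 47 members, under 0.5 for 8 and at 0.75 or more for 3. The median over all 11948 genes tested was 1.00. All 4 RPRD1B_FL samples were below all 4 parent samples for 48 of the 58 members, against 4.85% of all genes tested. The line difference was called lower (adjusted p under 0.05 with edgeR) for 28 of 58 members without tetracycline, where 0.954% of all genes were called lower, and for 25 of 58 with tetracycline, where 0.887% were. Averaged over tetracycline it was called lower for 49 of 58, where 2.68% of all genes were. No member was called higher in any of these, in which 0.226%, 0.226% and 1.41% of all genes were called higher. These counts come from the contrast that chose the members, so nothing is read from them. They also moved with single libraries: without tetracycline the count was 12 without FLP replicate 1, 5 without RPRD1B_FL replicate 1 and 15 without RPRD1B_FL replicate 2, and with tetracycline it was 2 without either FLP_TET sample, whereas the median log2 fold change stayed between -0.76 and -0.70 whichever Flp-In library was left out.

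The line differences without and with tetracycline share no samples, but both served to choose the members. Nothing is therefore read from their shared direction. Of all 11948 genes tested, 5868 were below 0 without tetracycline and 5906 with it. Both line differences were below 0 for 57 of 58 members, with medians of -0.76 and -0.72. For 32 members they differed by less than 0.25 on the log2 scale. Across the 58 members they correlated with a Pearson's r of 0.37, a description over genes measured in the same 8 libraries. The fall was smaller with tetracycline for 28 members and larger for 30.

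**Figure D2:**
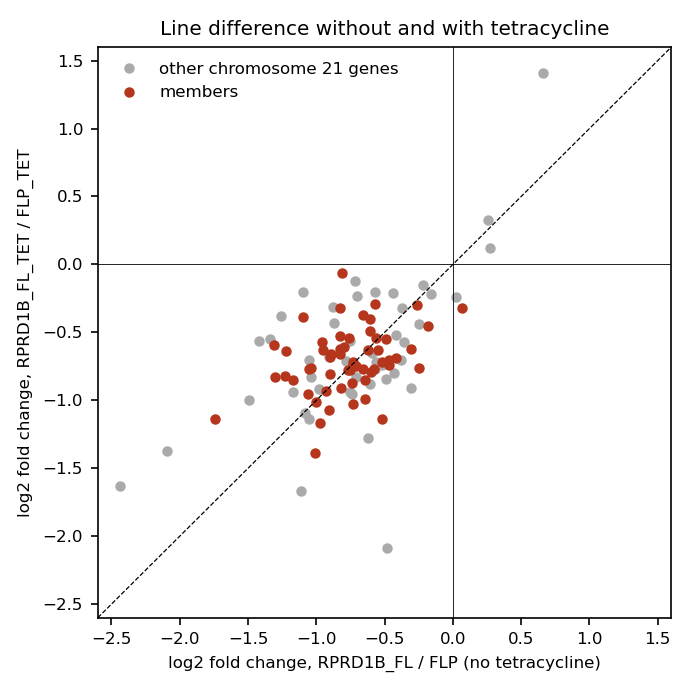
Log2 fold change of RPRD1B_FL over FLP (horizontal axis) and of RPRD1B_FL_TET over FLP_TET (vertical axis) for 58 members and 47 other tested genes of chromosome 21, one dot per gene (dashed line: equal values). For 57 of the 58 members, which were chosen on both differences, both values lie below 0.

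The 4 members that encode cytokine receptor chains lie side by side and had ratios in a narrow range, 0.532 to 0.609. IFNAR1 (chr21:33324477-33359862) encodes a chain of the receptor for type I interferons, and it was at 69.8 and 42.0 CPM in FLP, 30.9 and 30.2 in FLP_TET, 24.9 and 28.3 in RPRD1B_FL and 13.8 and 22.8 in RPRD1B_FL_TET. The lines did not overlap, but the parent samples without tetracycline were higher than those with it. Its ratio was 0.532 (0.468 to 0.604 at 1 SE on either side). IFNAR2 (chr21:33229901-33265675), the other chain of that receptor, was at 61.2 to 68.2 CPM in the 4 parent samples and at 32.9 to 43.5 in the 4 RPRD1B_FL samples, a ratio of 0.588 (0.534 to 0.647). These groups did not overlap and were alike with and without tetracycline.

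IL10RB (chr21:33266358-33310187), a chain shared by receptors of the interleukin-10 family and of type III interferons, was at 52.3 and 54.1 CPM in FLP, 61.8 and 72.6 in FLP_TET, 34.0 and 34.0 in RPRD1B_FL and 37.5 and 30.4 in RPRD1B_FL_TET (ratio 0.567, 0.517 to 0.622). IFNGR2 (chr21:33402896-33479348), a chain of the receptor for interferon gamma, was at 138 and 164 CPM in FLP, 163 and 186 in FLP_TET, 101 and 90.5 in RPRD1B_FL and 118 and 88.0 in RPRD1B_FL_TET (ratio 0.609, 0.561 to 0.662). For both genes every RPRD1B_FL sample was below every parent sample. For 14 of the 60 members another gene lies over the last 500 bases, where the reads of these libraries fall, and whether counting used the strand is not given in the sources used here. Among the members described here these are IFNGR2 (with TMEM50B, another member), IFNAR2, SON and DONSON (with each other), BACH1 (with GRIK1), ITSN1, and MORC3 (with CHAF1B), and their ratios are uncertain to that extent.

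The 7 members in kinase and signalling roles had a median ratio of 0.524, from 0.492 for ITSN1, an adaptor of endocytosis, to 0.742 for BTG3, an inhibitor of cell growth. DYRK1A (chr21:37365573-37526358), a kinase known to act against NFAT transcription factors, was at 45 and 52.4 CPM in FLP, 42.3 and 40.1 in FLP_TET, 24.1 and 31.7 in RPRD1B_FL and 19.9 and 35.3 in RPRD1B_FL_TET. Its ratio was 0.613 (0.546 to 0.689). RCAN1 (chr21:34513142-34615142), an inhibitor of the phosphatase calcineurin, was at 66.4 to 77.5 CPM in the parent samples and 33.2 to 37.3 in the RPRD1B_FL samples, a ratio of 0.503 (0.461 to 0.550). The lines did not overlap for either gene, with a wider spread in RPRD1B_FL for DYRK1A.

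Of the 8 metabolic enzymes, with ratios from 0.476 to 0.650, all had every RPRD1B_FL sample below every parent sample, against 4.85% of all genes tested. The members were chosen for such a difference, so nothing is read from this count. GART (chr21:33503931-33543491) carries 3 steps of purine synthesis in 1 protein, and it was at 201 and 203 CPM in FLP, 191 and 185 in FLP_TET, 108 and 109 in RPRD1B_FL and 112 and 104 in RPRD1B_FL_TET. Samples of a line differed little beside the gap between lines, and its ratio was 0.553 (0.514 to 0.594). SOD1 (chr21:31659622-31668931), the copper-zinc superoxide dismutase, was at 1188 and 994 CPM in FLP, 1094 and 1077 in FLP_TET, 616 and 608 in RPRD1B_FL and 753 and 633 in RPRD1B_FL_TET (ratio 0.596, 0.556 to 0.639). HLCS (chr21:36750888-36990236), which attaches biotin to carboxylases, was the lowest of the group and was at 30.3 to 33.5 CPM in the parent samples and 13.4 to 19.1 in the RPRD1B_FL samples (ratio 0.476, 0.424 to 0.534).

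Members of protein folding, ubiquitin and SUMO pathways had a median ratio of 0.585 over 9 genes, and they include the member with the smallest line difference. CCT8 (chr21:29055805-29073797), a subunit of the chaperonin that folds actin and tubulin, was at 845 and 778 CPM in FLP, 582 and 665 in FLP_TET, 406 and 460 in RPRD1B_FL and 324 and 462 in RPRD1B_FL_TET. The lines did not overlap, and the ratio was 0.578 (0.534 to 0.626). TTC3 (chr21:37073226-37203112), a ubiquitin ligase, was at 138 and 103 CPM in FLP, 83.1 and 69.9 in FLP_TET, 44.6 and 52.7 in RPRD1B_FL and 38.2 and 49.2 in RPRD1B_FL_TET (ratio 0.478, 0.435 to 0.526). Its neighbour PIGP, which shares the printed promoter window and belongs to the enzyme that starts GPI anchors, was at 29.5 to 33.4 CPM in the parent samples and 20.1 to 21.6 in the RPRD1B_FL samples, a ratio of 0.650 (0.586 to 0.722).

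Nearest to 1 was USP25 (chr21:15730025-15880069), a ubiquitin protease. It was at 9.16 and 5.47 CPM in FLP, 5.25 and 4.97 in FLP_TET, 7.32 and 7.64 in RPRD1B_FL and 3.82 and 4.47 in RPRD1B_FL_TET. The lines overlapped, and the ratio of 0.917 (0.754 to 1.11) rests on 10 to 24 counts per sample. The difference was 0.07 on the log2 scale without tetracycline, the single value above 0 among the members, and -0.32 with it. The averaged log2 fold change of USP25, -0.13, turned to 0.06 without FLP replicate 1.

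Transcription factors and chromatin proteins, 14 members, spanned ratios from 0.369 to 0.825. BACH1 (chr21:29194071-29630751), a repressor of antioxidant genes, was the lowest member of all and was at 15.6 and 12.4 CPM in FLP, 10.8 and 13.6 in FLP_TET, 3.29 and 4.97 in RPRD1B_FL and 4.97 and 6.26 in RPRD1B_FL_TET. The lines did not overlap, and the ratio was 0.369 (0.311 to 0.438). HMGN1 (chr21:39342315-39349647), a protein that binds nucleosomes, was at 536 and 408 CPM in FLP, 297 and 317 in FLP_TET, 180 and 199 in RPRD1B_FL and 185 and 227 in RPRD1B_FL_TET (ratio 0.518, 0.479 to 0.561). HMGN1 has 30 processed copies listed under HMGN1P names, and the 1 that was tested, HMGN1P38 on chromosome 15, was at 62.9 and 63.4 CPM in RPRD1B_FL against 79.4 and 107 in FLP. How the authors' counting divided reads between HMGN1 and such copies is not given in the sources used here, so the HMGN1 values are uncertain to that extent.

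CHAF1B (chr21:36385378-36419015), a subunit of the factor that loads histones behind the replication fork, was at 110 to 143 CPM in the parent samples and 69.9 to 84.5 in the RPRD1B_FL samples (ratio 0.617, 0.570 to 0.668). ETS2 (chr21:38805307-38824955), an ETS family transcription factor, was at 85.1 to 106 CPM in the parent samples and 59.6 to 74.6 in the RPRD1B_FL samples (ratio 0.666, 0.612 to 0.725). Neither gene's lines overlapped. GABPA (chr21:25734570-25772460), the DNA-binding subunit of the GABP factor, was at 45.8 and 49.8 CPM in FLP, 30.6 and 30.2 in FLP_TET, 28.5 and 34.0 in RPRD1B_FL and 20.6 and 25.9 in RPRD1B_FL_TET. Here the FLP_TET and RPRD1B_FL samples overlapped, with a ratio of 0.703 (0.634 to 0.779).

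Beside USP25, the members with a ratio of 0.75 or more were RUNX1 and PKNOX1. These are extremes picked from 58 members, and whether they differ from the rest was not tested. RUNX1 (chr21:34787801-36004667), a regulator of blood cell formation, was at 17.6 and 14.1 CPM in FLP, 17 and 21.5 in FLP_TET, 11.7 and 16 in RPRD1B_FL and 13.4 and 15.2 in RPRD1B_FL_TET, and its ratio was 0.806 (0.707 to 0.919). PKNOX1 (chr21:42974510-43033931), a homeobox protein that partners with PBX and HOX factors, was at 31.6 to 39.1 CPM in the parent samples and 26.4 to 32.5 in the RPRD1B_FL samples, a ratio of 0.825 (0.745 to 0.914). The lines overlapped for both. BTG3, the next, was at 42.8 to 67.2 CPM in the parent samples and 30.4 to 49.3 in the RPRD1B_FL samples.

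Genes of RNA processing and ribosome assembly had a median ratio of 0.662 over 8 tested members, with a range of 0.542 to 0.705, against 0.599 for all members. SON (chr21:33542618-33577481), a cofactor of splicing, was at 475 and 354 CPM in FLP, 315 and 294 in FLP_TET, 234 and 230 in RPRD1B_FL and 244 and 250 in RPRD1B_FL_TET, and its ratio was 0.672 (0.623 to 0.724). The lines did not overlap. SON thus had a higher ratio than GART, its partner across the printed window. The gap was small without tetracycline (0.562 and 0.537) and wider with it (0.802 and 0.569), and the difference between the genes was not tested. U2AF1 (chr21:43092956-43107587), which recognises the 3′ end of introns, was not tested, as its level was 0.00 to 2.01 CPM in the 8 Flp-In samples, around the floor. U2AF1L5, a near-identical copy on the same chromosome, was at 0.366 to 5.34 CPM in them, and reads shared by the copies cannot be assigned here.

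The 5 surface and secreted proteins had ratios from 0.436 to 0.724. Every RPRD1B_FL sample of each was below every parent sample, against 4.85% of all genes tested, and again nothing is read from this count. APP (chr21:25880550-26171128), the precursor of the amyloid peptide, was at 593 and 435 CPM in FLP, 390 and 393 in FLP_TET, 262 and 262 in RPRD1B_FL and 255 and 277 in RPRD1B_FL_TET (ratio 0.587, 0.544 to 0.634). ADAMTS1 (chr21:26835747-26845409), a secreted protease, was at 224 and 228 CPM in FLP, 213 and 180 in FLP_TET, 118 and 106 in RPRD1B_FL and 78.4 and 72.8 in RPRD1B_FL_TET (ratio 0.436, 0.404 to 0.470). ADAMTS1 was the second lowest of the block. PCNT (chr21:46324122-46445769), a scaffold of the centrosome, was at 145 to 166 CPM in the parent samples and 86.2 to 101 in the RPRD1B_FL samples (ratio 0.604, 0.559 to 0.653), and DONSON, a replication factor, had a ratio of 0.536. C2CD2 had 1.24 to 3.65 CPM in the parent samples and was at 0 in 3 of the 4 RPRD1B_FL samples and at 0.382 CPM in the other, below the floor, so no ratio is given.

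**Figure D3:**
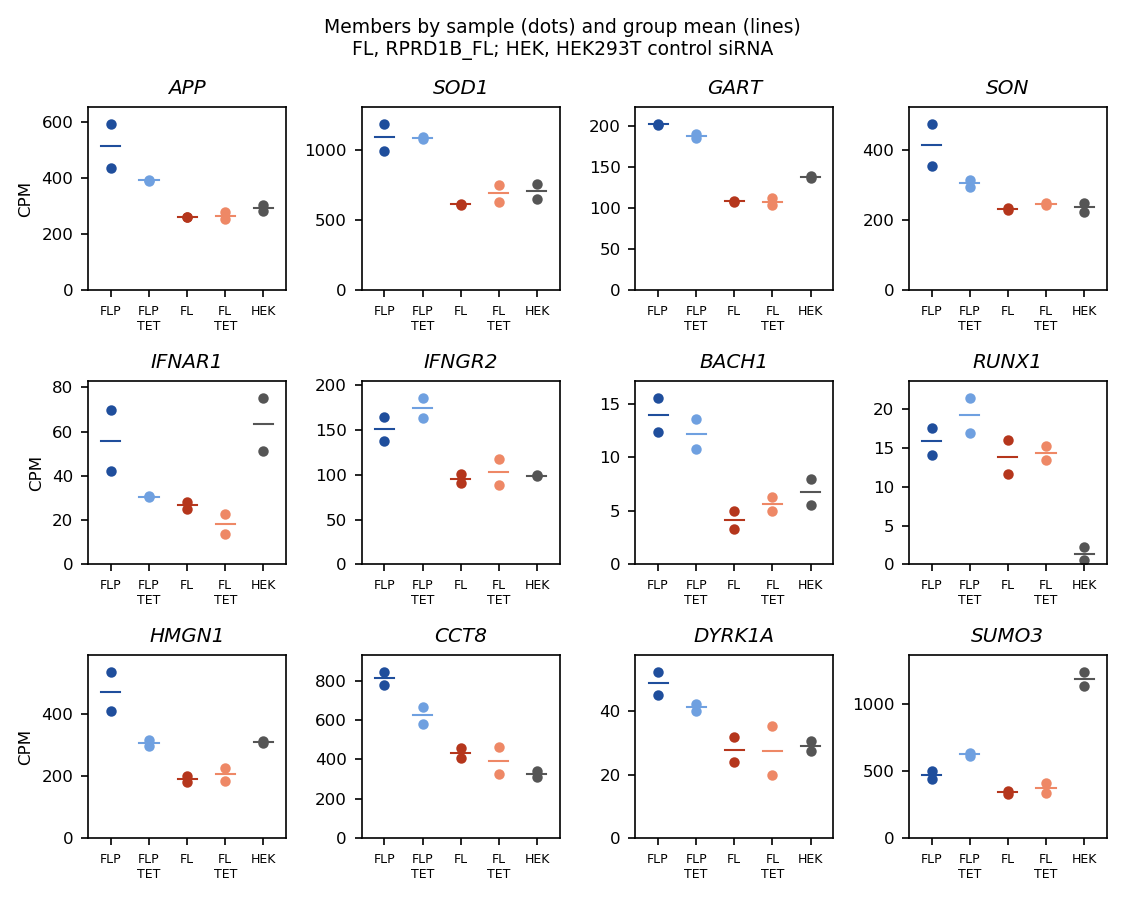
CPM of 12 members in FLP, FLP_TET, RPRD1B_FL (FL), RPRD1B_FL_TET (FL TET) and HEK293T control (HEK) samples, 2 dots per group with a line at the mean. BACH1 falls from 10.8 to 15.6 CPM in the parent line to 3.29 to 6.26 in RPRD1B_FL, RUNX1 overlaps between the lines, and RUNX1 and SUMO3 stand far from both lines in HEK293T.

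The other tested genes of chromosome 21 were lowered too. The 47 of them had a median ratio of 0.634. Of the members, whose choice favoured such genes, 48 of 58 had all RPRD1B_FL samples below all parent samples. Of the 47 others 22 did, against 4.85% of all genes tested. The ratio was under 0.5 for 8, between 0.5 and 0.75 for 29, at 0.75 or more for 10, and above 1 for 3 of these 10. The 5 lowest were RIPPLY3 (0.244), SH3BGR (0.301), COL6A1 (0.381), COL6A2 (0.410) and the antisense RNA gene LINC01424 (0.421). COL6A1, a chain of collagen VI, was at 39.7 and 50.6 CPM in FLP, 81.6 and 74.9 in FLP_TET, 20.9 and 21 in RPRD1B_FL and 28.7 and 20.6 in RPRD1B_FL_TET, with no overlap of the lines. RIPPLY3, SH3BGR, COL6A2 and LINC01424 were at 11.8 CPM or less in all Flp-In samples.

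Of the 5 highest, AP000692.2 had a ratio of 2.05 (SE 0.22 on the log2 scale), FP565260.1 of 1.23, LINC01547 of 1.15 (log2 fold change -0.14 without RPRD1B_FL_TET replicate 1), PRDM15 of 0.929 and the chaperone gene HSPA13 of 0.879. AP000692.2 is annotated as antisense at the start of the member MORC3, and it was at 5.34 and 4.89 CPM in FLP, 7.41 and 7.62 in FLP_TET, 8.05 and 8.02 in RPRD1B_FL and 22.2 and 18.3 in RPRD1B_FL_TET. Its RPRD1B_FL samples were all above its parent samples, most widely with tetracycline. Reads of an antisense gene and its partner can be told apart only where counting used the strand. PRDM15, a chromatin regulator, was at 19.3 to 27.2 CPM in the parent samples and 18.7 to 23.7 in the RPRD1B_FL samples, which overlapped.

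Ratios varied along the chromosome. The 5 tested genes before 17 Mb, which include USP25, HSPA13 and FP565260.1, had a median ratio of 0.879, and the 3 between 17 and 25 Mb had one of 0.724. From 25 to 30 Mb the median was 0.587 (11 genes), from 30 to 35 Mb 0.553 (27), from 35 to 40 Mb 0.590 (18), from 40 to 43 Mb 0.677 (10), from 43 to 45 Mb 0.651 (15) and from 45 to 47 Mb 0.602 (16). The first stretches hold few genes, and the differences between stretches were not tested. Over all 105 tested genes of chromosome 21 the median log2 fold change was -0.73, whereas the medians of the other 22 chromosomes ranged from -0.24 (chromosome 18) to 0.14 (chromosome 6). On the short arm of chromosome 5, 89 of 90 tested genes were below 0, with a median of -0.50 (ratio 0.705). Of the 90, 37 were called lower, where 2.68% of all genes were.

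**Figure D4:**
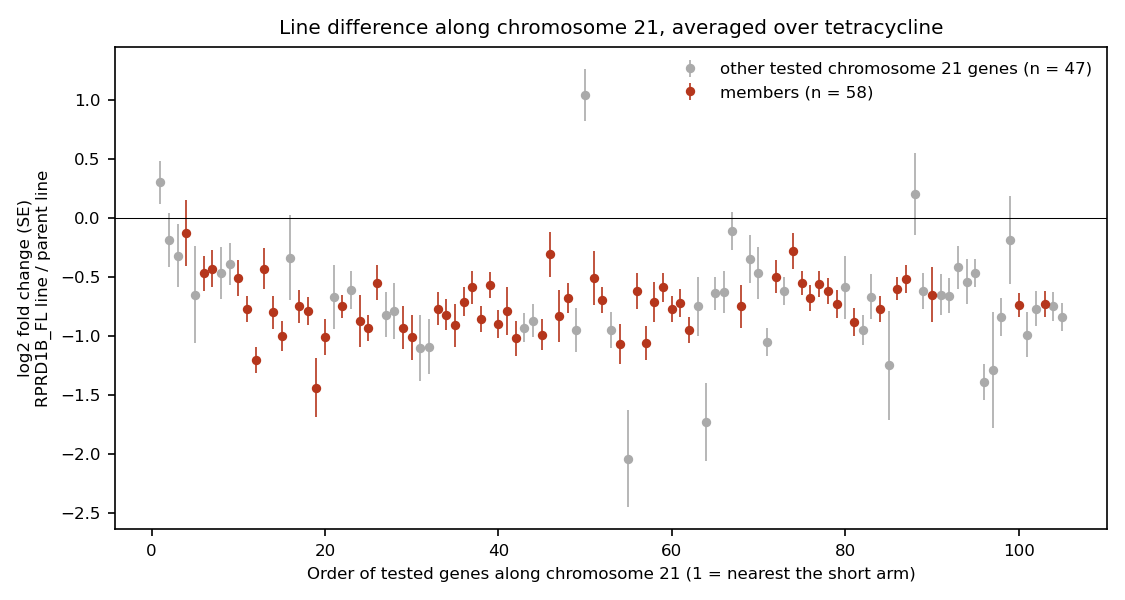
Line-averaged log2 fold change of RPRD1B_FL over parent (vertical bars: 1 SE) for the 105 tested genes of chromosome 21, in order from the short-arm end. Members lie between -1.44 and -0.13, and 3 other genes lie above 0.

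Tetracycline gave few calls among the members. These comparisons did not choose the members, but they use the same 8 samples as those that did. In the parent line 1 of 58 members was called (edgeR, adjusted p under 0.05), against 1.02% of all genes tested, with 0.795% called lower. USP16, a histone H2A deubiquitinase, was at 171 and 126 CPM in FLP and 80.6 and 86.2 in FLP_TET, a fall of 0.83 on the log2 scale (log2 fold change -0.83, SE 0.19, edgeR adjusted p = 0.0468). Both tetracycline samples were below both others, but the call was lost with a mean count filter of 50, with the replicate number as a block, with a correction for GC content (USP16 then at -0.46) and without FLP replicate 1 (-0.60), FLP_TET replicate 1 or FLP_TET replicate 2. The count of members was 7 without FLP replicate 2, 4 with DESeq2 and 9 with only the parent samples fitted. At an unadjusted p under 0.05 there were 15 of 58 members, against 22.7% of all genes.

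In the RPRD1B_FL line no member was called with edgeR or DESeq2, and no gene of all 11948 was called with edgeR. At an unadjusted p under 0.05 there were 3 members, against 6.13% of all genes. The test of whether the line difference itself changed with tetracycline called 0 members with either tool, and 4 of 58 had an unadjusted p under 0.05, against 3.99% of all genes. These 4 were HMGN1 (0.72, SE 0.23), N6AMT1 (0.75), USP16 (0.72, SE 0.28) and SON (0.51, SE 0.22), each with a smaller gap between the lines with tetracycline and an edgeR adjusted p of 0.991. The libraries also differed in how their levels followed GC content, with Spearman's rho across 11750 genes from -0.50 in FLP replicate 1 to 0.54 in RPRD1B_FL_TET replicate 1. Beyond the GC correction, the part of GC content in the tetracycline differences was not tested. Under that correction 0 members were called for tetracycline in the parent line. The median line difference of the members, which is another comparison, was -0.76 under it.

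HEK293T cells held the block at levels between the Flp-In lines on the median, but gene by gene they did not follow either line. In the fit of all 24 samples, 59 members were tested. The mean of the HEK293T control was between the means of RPRD1B_FL and FLP for 28 of them, above FLP for 13 and below RPRD1B_FL for 18. Against FLP, 36 of 59 members were called, 33 of them lower, where 33.4% of all genes were called and 17.4% called lower. The median log2 fold change of the members was -0.61, a ratio of 0.656, against 0.02 for all genes. For the 47 other chromosome 21 genes of the Flp-In fit it was -0.29, with 15 called lower. The FLP samples also served to choose the members, so this comparison is not independent of that choice. The median over all of chromosome 21 was -0.39 (117 genes), and the medians of the other 22 chromosomes ranged from -0.40 (chromosome 18) to 0.41 (chromosome 11). The 95 tested genes of the chromosome 5 short arm had a median of -0.74, and 45 of them were called lower. The comparison with RPRD1B_FL also uses samples that served to choose the members. Against RPRD1B_FL, the median log2 fold change of the members was 0.20, beside 0.03 for all genes. Over all of chromosome 21 it was 0.32, and the medians of the other 22 chromosomes ranged from -0.29 to 0.41. Of the 59 members, 14 were called higher and 4 lower, where 15.6% and 15.5% of all genes were. In either direction this made 18 of 59 members, where 31.1% of all genes were called. That share is close to the background, and it moved with single libraries: the count was 9 without control replicate 2, 10 without RPRD1B_FL replicate 2, and 12 without control replicate 1 or RPRD1B_FL replicate 1.

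Cell line, siRNA transfection and any batch cannot be told apart in these comparisons. Of the 9 tested markers of 293 cells, 6 were lower in HEK293T than in FLP and 1 was higher, with a median log2 fold change of -2.29, and EPCAM, an epithelial marker, was as low as 0.511 CPM in HEK293T against 66.6 to 114 CPM in Flp-In cells. Reads outside annotated genes took 27.4% to 36.7% of all reads in HEK293T libraries and 15.3% to 19.5% in Flp-In libraries. Their part in the differences of the members was not tested.

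Several members differed widely between HEK293T and Flp-In cells. RUNX1 was at 0.558 and 2.23 CPM in the HEK293T control and at 0.558 to 2.91 CPM (median 1.55) over the 16 HEK293T samples, whereas no Flp-In sample was below 11.7. Its log2 fold change was -3.37 against FLP (edgeR adjusted p = 1.02e-05) and -3.19 against RPRD1B_FL (edgeR adjusted p = 3.44e-05). PWP2, a ribosome assembly factor, was at 26.8 and 13.4 CPM in the control against 94.6 and 97.8 in FLP and 58.5 and 56.9 in RPRD1B_FL, so that it too was below both lines. HLCS was at 4.46 and 8.46 CPM in the control, likewise below both lines, and AGPAT3, an acyltransferase of phospholipid synthesis, at 37.4 and 28.9 CPM against 52.7 to 107 in the Flp-In samples.

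In the other direction, SUMO3, a ubiquitin-like modifier, was at 1238 and 1133 CPM in the HEK293T control and 986 to 1353 over all 16 samples, against 441 and 502 in FLP and 330 and 351 in RPRD1B_FL. The log2 fold change was 1.33 against FLP (edgeR adjusted p = 4.69e-07) and 1.80 against RPRD1B_FL (edgeR adjusted p = 4.9e-09). USP25, at 12.3 and 16.9 CPM in the control, was higher than in both lines (log2 fold change 1.04 against FLP, edgeR adjusted p = 0.0197). U2AF1 was at 2.79 and 8.01 CPM in the control, a low level whose log2 fold change of 1.75 against FLP (edgeR adjusted p = 0.0302) depends on how reads of U2AF1L5 were counted.

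Among the receptor chains, IFNAR1 was at 75.3 and 51.2 CPM in the control, above RPRD1B_FL (log2 fold change 1.24, edgeR adjusted p = 0.000481) and not past the test against FLP (0.18, edgeR adjusted p = 0.587). IFNGR2 was at 99.8 and 98.4 CPM, below FLP (-0.61, edgeR adjusted p = 0.00629) and not separable from RPRD1B_FL (0.05, edgeR adjusted p = 0.849). For APP the control samples were at 282 and 302 CPM and for SOD1 at 649 and 760 CPM. Both genes were lower than in FLP, by 0.82 and 0.63 on the log2 scale (log2 fold changes -0.82 and -0.63, edgeR adjusted p = 0.000677 and 0.00567), and neither passed the test against RPRD1B_FL.

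Silencing the RPRD genes did not move the block detectably. In the 7 comparisons with the control siRNA, fitted on 16 HEK293T samples in which 58 members were tested, edgeR called 0 members and DESeq2 called 0. The test called few genes at all, 0.00845% to 0.0169% of 11834 per comparison. The median log2 fold change of the members ranged from -0.02 to 0.03 over the 7 comparisons, and single members from -1.06 to 0.74. At an unadjusted p under 0.05 there were 4 members in RPRD1A_RPRD2_KD, against 7.07% of all genes there, 1 in RPRD2_KD (3.84%), 1 in RPRD1B_RPRD2_KD (2.51%) and 0 in RPRD1B_KD (3.46%), RPRD1A_KD (2.64%), RPRD1A_RPRD1A_KD (3.99%) and RPRD1A_RPRD1B_RPRD2_KD (3.99%).

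The lowest of those values, -1.06 for GABPA in RPRD1A_RPRD2_KD, came from 1 library. GABPA was at 27.5 CPM in replicate 1 of that group and at 4.07 in replicate 2, whereas the other 14 HEK293T samples were at 21.1 to 45.9. APP, CSTB, ETS2 and HMGN1 were also lowest of all 16 samples in that replicate, at 192, 266, 30.5 and 183 CPM. With replicate 1 of the group left out, so that the odd library stood alone and was assumed to vary like the other groups, these 5 members were called. With replicate 2 left out, none was.

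Genes that work with the members, most of them on other chromosomes, were counted as lists beside them. Of all genes tested, 1.18% were called in either direction without tetracycline, 1.11% with it and 4.08% on average over it. Of 39 tested partners in complexes with members, 1 was called higher and 1 lower without tetracycline, and 1 lower with it, with medians of 0.06 and 0.13 (log2) against 0.01 and 0.00 for all genes. The 7 tested partners of CCT8 in its chaperonin are given in full, and were singled out after their values were seen. CCT5, on the short arm of chromosome 5 whose genes were lower as a block in this line, was at 1011 to 1228 CPM in the parent samples and 626 to 675 in the RPRD1B_FL samples, lower without (-0.68, edgeR adjusted p = 0.00784) and with tetracycline (-0.84, edgeR adjusted p = 0.00102). Averaged over tetracycline, TCP1 (0.51), CCT4 (0.42) and CCT7 (0.40), encoded on chromosomes 6 and 2, were called higher (edgeR adjusted p = 0.00203, 0.0125 and 0.0353), and CCT2 (0.16), CCT6A (0.15) and CCT3 (-0.05) were not called (edgeR adjusted p = 0.442, 0.51 and 0.884). TCP1 was at 461 to 510 CPM in the parent samples and 678 to 716 in the RPRD1B_FL samples, without overlap. Averaged over tetracycline, the median over all tested genes was 0.14 for chromosome 6, the highest of any chromosome, and 0.08 for chromosome 2. The part of these chromosome shifts in the higher values was not tested.

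PSMG4, a proteasome assembly chaperone and partner of the member PSMG1, was the gene called higher without tetracycline, at 56.9 and 53.2 CPM in FLP and 88.5 and 90.2 in RPRD1B_FL (log2 fold change 0.70, edgeR adjusted p = 0.0416). TBP, the TATA-binding protein, was higher on average (0.60, edgeR adjusted p = 0.023). Whether these higher levels are linked to the lowered members was not tested. Of the 12 purine synthesis partners of GART and the 21 oxidant defence partners of SOD1 and BACH1, none was called in either line difference or on average with edgeR or DESeq2. At an unadjusted p under 0.05 there were 3 of 12 and 3 of 21 on average, against 17.5% of all genes. Their medians averaged over tetracycline were 0.04 and 0.01.

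Of 9 tested partners of the interferon and IL-10 receptors, none was called in either line difference with edgeR or DESeq2, with 1 at an unadjusted p under 0.05 in each, against 13.3% of all genes without and 10.3% with tetracycline. STAT2, a transcription factor of type I interferon signalling, was lower on average with edgeR (-1.09, adjusted p = 0.017) and was not called with DESeq2. Of 15 interferon target genes tested, 5 had an unadjusted p under 0.05 without tetracycline, 5 with it and 6 on average, where 17.5% of all genes did on average. BST2, which tethers budding viruses, was lower with tetracycline (-1.12, edgeR adjusted p = 0.0118), at 40.5 and 35.5 CPM in FLP_TET and 18.7 and 16.5 in RPRD1B_FL_TET. The median of the list averaged over tetracycline was -0.34 against 0.00 for all genes.

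Of 15 calcineurin and NFAT partners of RCAN1 and DYRK1A, NFATC4 was lower with tetracycline with edgeR but not with DESeq2 (-1.15, edgeR adjusted p = 0.026) and NFATC2 on average (-0.86, edgeR adjusted p = 0.0255). Of 24 tested paralogs of members, CBR3, which lies beside CBR1 on chromosome 21, was lower without tetracycline (-1.34, edgeR adjusted p = 0.0101), while on average BTG1 was lower (-0.42) and AGPAT4 higher (0.60). The markers of other cell types had 3 tested genes and none called with edgeR, with 1 at an unadjusted p under 0.05 without tetracycline and 0 with it. Of the 8 tested markers of 293 cells NEFL was lower in both line differences (-0.79 and -0.66) and LHX1 on average (-0.89). The calls in the partner and paralog lists, 5 genes in either line difference, fell to 0 without FLP replicate 1, RPRD1B_FL replicate 1, RPRD1B_FL replicate 2 or FLP_TET replicate 1, to 1 without FLP_TET replicate 2, 2 without RPRD1B_FL_TET replicate 2 and 3 without FLP replicate 2.

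**Figure D5:**
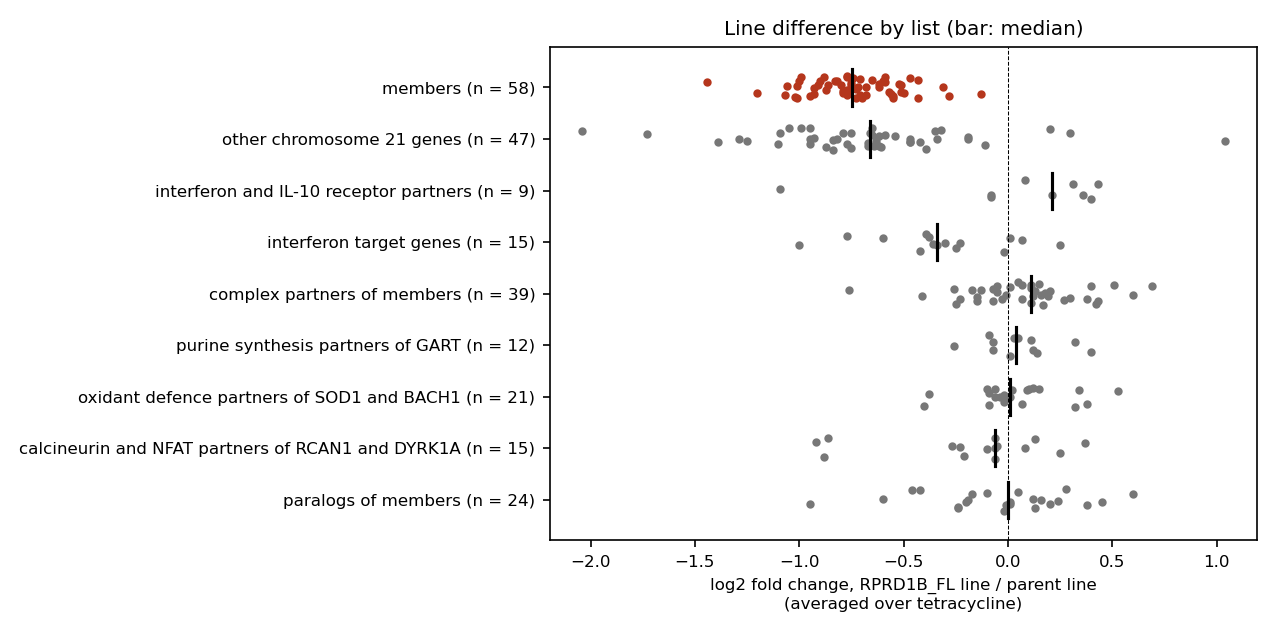
Line-averaged log2 fold change, RPRD1B_FL over parent, of the 58 tested members, 47 other genes of chromosome 21 and 7 lists of partner and paralog genes, one dot per gene with a bar at the median. The chromosome 21 sets have medians of -0.74 and -0.66, and the 7 lists have medians from -0.34 to 0.21.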

How the data were processed

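Whole-number read counts per gene name, one table per sample, were deposited by the authors for all 24 samples. The submitters' processing notes name FastQC, STAR, HTSeq, DESeq2 and the build GRCh38; versions, the annotation and the use of strand are not given in the sources used here. The 5 closing rows of each table, such as reads outside genes, entered no library size or test.

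Names were matched to GENCODE 29 (54848 of 58138 matched 1 gene). Groups came from the sample titles. Counts were fitted in R 4.3.3 with edgeR 4.0.16 (filterByExpr, minimum count 10 and total 15; TMM; quasi-likelihood test; Benjamini-Hochberg over all genes), separately for the 8 Flp-In samples (11948 genes), the 16 HEK293T samples (11834) and all 24 (12803, for HEK293T against Flp-In). A gene was called at an adjusted p under 0.05. The line-averaged value is the mean of the line differences without and with tetracycline, the dosage ratio is 2 to its power, and SE is the size of the log2 fold change divided by the root of its F statistic. CPM are scaled by TMM over all samples. Sample medians used log2(CPM + 0.5). The fit was tested on simulated data.

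The members, their roles and all lists were chosen with earlier results of these data known. Per-sample values are given for the 4 lowest and 4 highest members, 19 members set by role, other chromosome 21 genes at either extreme (5 each), members called outside the line differences and called genes of a list (up to 5 each); further genes named, such as PWP2, AGPAT3, PIGP and SUMO3, were chosen after their values were seen. To check the replicate numbers, each sample's deviation from its group's mean was correlated between samples of like number, which gave a mean r of 0.33 in HEK293T (28 pairs of groups, -0.013 to 0.52) and of -0.018 in Flp-In samples (6 pairs, -0.35 to 0.45), so, with pairs below 0 in both, the numbers were not taken to pair the samples. In HEK293T the number still went with the share of reads outside genes (34.3% to 36.7% in replicate 1, 27.4% to 29.8% in replicate 2), and fits with the number as a block are given as an alternative. Alternatives were RLE size factors, DESeq2 1.42.0, no count filter, a mean count of 50 or more, only the groups compared, the replicate number as a block, a GC correction (lowess, span 0.3), both together, scaling without chromosomes 5 and 21, and each sample left out; the block without RPRD1A_RPRD2_KD replicate 2 was added after the data were seen. Floors cover counting error only. Some genes of the lists are not reported here.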

Additional observations from a re-analysis of the deposited data

How the results depend on the processing

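The median line-averaged log2 fold change of the members, -0.74, was -0.76 to -0.73 under the 8 alternatives and -0.76 to -0.70 with single libraries left out. Members called lower numbered 27 to 39 without tetracycline (28 as reported) and 21 to 36 with it (25) under the alternatives, but 5 to 26 and 2 to 23 with single libraries left out. Members called for tetracycline in the parent line (1) numbered 4 with DESeq2, 5 with no count filter, 9 with only the groups compared, and 0 with a mean count of 50 or more, with the replicate block, with the GC correction and with both together, and 0 to 7 with single libraries left out; the cause was not tested. For tetracycline in the RPRD1B_FL line and for the interaction the count was 0 throughout (0 to 0). For the siRNA groups it was 0, or 0 to 5 with libraries left out. Against FLP the HEK293T control had 24 to 28 members called with a library left out, and against RPRD1B_FL 9 to 12, or 10 with a mean count of 50 or more, a filter that tests fewer genes. Genes called in the partner and paralog lists (5) numbered 10 with no count filter, 15 with the GC correction, 14 with the GC correction and block, and 0 to 6 with a library left out. With the replicate number as a block the counts were 27 and 24 for the line differences, 0 for both tetracycline comparisons, the interaction and the siRNA groups, 36 and 19 for HEK293T and 4 for the lists, and the median was -0.74. Of 547 alternative values for 35 named results, 525 kept their direction and side of the threshold, 14 were no longer called and 6 became called. The other 2, neither of them called, changed sign: USP25 ranged from -0.30 without FLP replicate 2 to 0.06 without FLP replicate 1, and LINC01547 from -0.14 without RPRD1B_FL_TET replicate 1 to 0.41 without RPRD1B_FL_TET replicate 2. At these depths, genes near the floor, such as U2AF1, C2CD2 and USP25, have wide errors.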
